A study of Mus musculus with 6 samples.

Results

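The proteasome genes were studied in hearts of mouse pups that expressed human SRY, the male sex-determining gene, throughout the body from the 1-cell embryo. They were chosen by symbol, as every probe named Psma, Psmb, Psmc, Psmd, Psme, Psmf or Psmg followed by a digit. The name rule took 65 of the 25697 probes on the array and 44 of its 18138 gene symbols. Psmc3ip, a cofactor of meiotic recombination, matched by its letters alone and is no proteasome protein. This left 43 proteasome genes with 64 probes. They comprised 14 subunits of the 20S core, 3 immunoproteasome subunits, 16 subunits of the 19S regulatory particle, 5 activators and inhibitors, and 5 assembly chaperones. Psma8, Psmb11, Psmd3, Psmg1 and Psmg4 were not analysed here, as no probe was found under these symbols.

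The proteasome is the protease that degrades ubiquitin-tagged proteins. Its barrel-shaped 20S core is built of alpha rings and beta rings, and the beta subunits Psmb5, Psmb6 and Psmb7 carry the chymotrypsin-like, caspase-like and trypsin-like sites. The 19S particle caps the core, recognises ubiquitin, removes it and unfolds the substrate with its ATPases. Interferon gamma induces Psmb8, Psmb9 and Psmb10, which take the places of Psmb5, Psmb6 and Psmb7 in newly built immunoproteasomes, and it induces Psme1 and Psme2, which form the PA28 activator. Immunoproteasomes produce peptides that suit presentation on MHC class I molecules. In the heart the proteasome turns over sarcomere and signalling proteins.

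Hearts of male FVB mice (FVB/N in the methods of the study) were taken at postnatal day 6 (P6), and there were 3 hSRY-ON and 3 hSRY-OFF hearts, each on 1 MouseRef-8 v2.0 array. The Signalox-hSRY transgene was a single copy at the H11 locus in 1 mouse line, driven by the CAG promoter. In hSRY-ON pups Cre recombinase from the oocytes of Ddx4-Cre mothers had removed a DsRed2 stop cassette, so that FLAG-tagged hSRY and EGFP were expressed together, and the pups chosen for the arrays did not inherit Ddx4-Cre. The study describes its controls in more than 1 way, as carriers of the unrecombined transgene or as littermates that lacked it, so which of these the hSRY-OFF hearts were cannot be told apart here. The human transcript itself was not checked on this mouse array. The triplicates were biological, and so few hearts limit the precision. The share of probes detected was 47.2% to 51.3% per array, and 52 to 56 of the 65 matching probes were detected.

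The 6 cardiomyocyte markers on the array were all detected, as the tissue label requires, and they were divided between the groups. Myh6, Pln, Ryr2 and Tnni3 fell in hSRY-ON hearts, Nkx2-5 rose by a log2 fold change of 0.68 (limma adjusted p = 0.00493) and Actn2 was at 0.13 (limma adjusted p = 0.475). Their summed level ranged from 63680 to 69020 over the hSRY-OFF hearts and from 55100 to 59700 over the hSRY-ON hearts. This sum rested mostly on Myh6 and Actn2, the brightest of the list. Myh6 was at a mean log2 intensity of 15.02 in hSRY-OFF and 14.51 in hSRY-ON, and Actn2 at 14.76 and 14.89. One library stood apart. Scgb1a1, a secretory protein of the lung epithelium, had a normalized log2 intensity of 13.74 in hSRY-ON 1 and of 4.53 to 6.52 in the other 5 hearts. Ucp1, the uncoupling protein of brown fat, was at 8.88 in hSRY-OFF 3 and at 8.80 to 10.81 in the hSRY-ON hearts, against 4.64 and 5.03 in the other hSRY-OFF hearts. For the proteasome genes, calls that change without hSRY-ON 1 or hSRY-OFF 3 are given without them below. So are their log2 fold changes above 0.2 that move by more than 1.5 times. Genes of the lists around the proteasome and the markers are given over all 6 hearts only. Whether their calls hold without any 1 heart was not tested.

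Of the 5 interferon-inducible genes 4 passed the test of the groups, all but Psmb8, and the promoters of all 5 are shown for that reason. Each line gives 250 bases before and 30 after the start annotated by RefSeq on GRCm38.p6, with a motif match in capitals.

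Psmb8 (chr17:34197945-34198224, plus strand): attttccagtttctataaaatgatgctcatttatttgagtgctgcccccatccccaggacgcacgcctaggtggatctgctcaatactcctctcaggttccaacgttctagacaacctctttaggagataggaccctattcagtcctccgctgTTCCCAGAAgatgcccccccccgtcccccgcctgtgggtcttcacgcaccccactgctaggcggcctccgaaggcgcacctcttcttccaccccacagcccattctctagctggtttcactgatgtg
Psmb9 (chr17:34187301-34187580, minus strand): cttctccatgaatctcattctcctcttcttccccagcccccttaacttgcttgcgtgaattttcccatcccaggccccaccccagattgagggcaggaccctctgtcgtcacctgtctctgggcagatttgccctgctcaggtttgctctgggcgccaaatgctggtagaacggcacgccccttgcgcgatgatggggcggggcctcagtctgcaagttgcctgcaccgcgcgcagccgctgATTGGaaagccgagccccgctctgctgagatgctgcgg
Psmb10 (chr8:105938363-105938642, minus strand): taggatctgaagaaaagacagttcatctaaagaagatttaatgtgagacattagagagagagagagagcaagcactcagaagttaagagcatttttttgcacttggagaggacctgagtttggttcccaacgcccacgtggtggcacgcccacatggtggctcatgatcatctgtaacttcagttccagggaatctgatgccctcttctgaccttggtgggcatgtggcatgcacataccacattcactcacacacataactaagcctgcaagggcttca
Psme1 (chr14:55578244-55578523, plus strand): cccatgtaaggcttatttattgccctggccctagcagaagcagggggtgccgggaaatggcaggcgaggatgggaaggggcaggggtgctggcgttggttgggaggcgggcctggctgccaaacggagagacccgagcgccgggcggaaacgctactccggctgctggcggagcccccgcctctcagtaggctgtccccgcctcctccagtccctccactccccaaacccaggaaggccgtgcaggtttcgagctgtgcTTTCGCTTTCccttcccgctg
Psme2 (chr14:55591072-55591351, minus strand): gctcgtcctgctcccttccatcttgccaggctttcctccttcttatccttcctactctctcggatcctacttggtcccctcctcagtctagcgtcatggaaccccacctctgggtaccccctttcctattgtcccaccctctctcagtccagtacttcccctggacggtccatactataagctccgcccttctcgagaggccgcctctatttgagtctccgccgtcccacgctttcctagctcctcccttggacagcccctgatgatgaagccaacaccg

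The capitals mark a gamma-interferon-activated site (GAS, TTCNNNGAA) that begins 97 bases before the start of Psmb8, a CCAAT box read on the opposite strand 8 bases before the start of Psmb9, and an interferon-stimulated response element (ISRE, searched as GAAA, any 2 bases and GAAA, here on the opposite strand) 9 bases after the start of Psme1. The sequences of Psmb10 and Psme2 held none of the motifs searched, which says only that these letters are not in this window. RefSeq gives Psme2 a further start just downstream, and its window held no match either. Windows with 50 bases after the start were available for 37 of the 43 proteasome genes, and Psmb1, Psmb2, Psmb7, Psmc3, Psmd7 and Psmg2 were without one. The ISRE letters occurred in 4 of the 37 (10.8%), namely in Psmb3, Psmd4, Psmd9 and Psme1, and in 3.99% of the 27025 genes of the whole promoter table. The GAS letters occurred in 2 (5.41%), Psmb8 and Psmd2, against 9.55% of all genes. The core of the antioxidant response element (TGACNNNGC), to which the proteasome gene regulator Nfe2l1 binds, occurred in 6 (16.2%) against 14.0%, and a CCAAT box, the site of NF-Y, in 13 (35.1%) against 41.1%. All motifs were searched on both strands, and a match is a description of letters and not a binding site.

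Of the 43 proteasome genes, 38 were detected well enough to be tested. A probe was tested when it was above background, at a detection p-value under 0.05, on at least 3 of the 6 arrays, and each gene is given by its brightest tested probe. In hSRY-ON hearts 1 of the 38 genes rose, the 19S assembly chaperone Psmd5, and 4 fell, namely Psmb9, Psmb10, Psme1 and Psme2 (limma, Benjamini-Hochberg adjusted p under 0.05 over all 12970 tested probes). Over all 9660 tested genes 28.8% were called, 14.9% up and 13.9% down, and whether the proteasome genes differ from this was not tested. The hearts of the groups did not overlap for 17 of the 38 genes, 10 above and 7 below, beside 46.8% of all tested genes, 24.9% above and 22.0% below. The unadjusted p was under 0.05 for 7 genes that were higher and 5 that were lower, beside 41.4% of all genes in both directions. The median log2 fold change was 0.03 over the 38 genes and 0.00 over all genes, with 21 of the 38 above 0, against 50.3% of all genes. All 4 genes that fell are interferon-inducible subunits, and none of the 25 tested subunits of the 20S core and the 19S particle passed the test. The last count depends on the variance model and the background. With an intensity trend in the variance 6 proteasome genes rose and 5 fell, and without background correction 7 rose and 5 fell. In both, Psma2, Psma5, Psmb1, Psmb4 and Psmd4 passed as higher and Psmb5 as lower. Without normalization between arrays none rose and 3 fell.

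**Figure D1:**
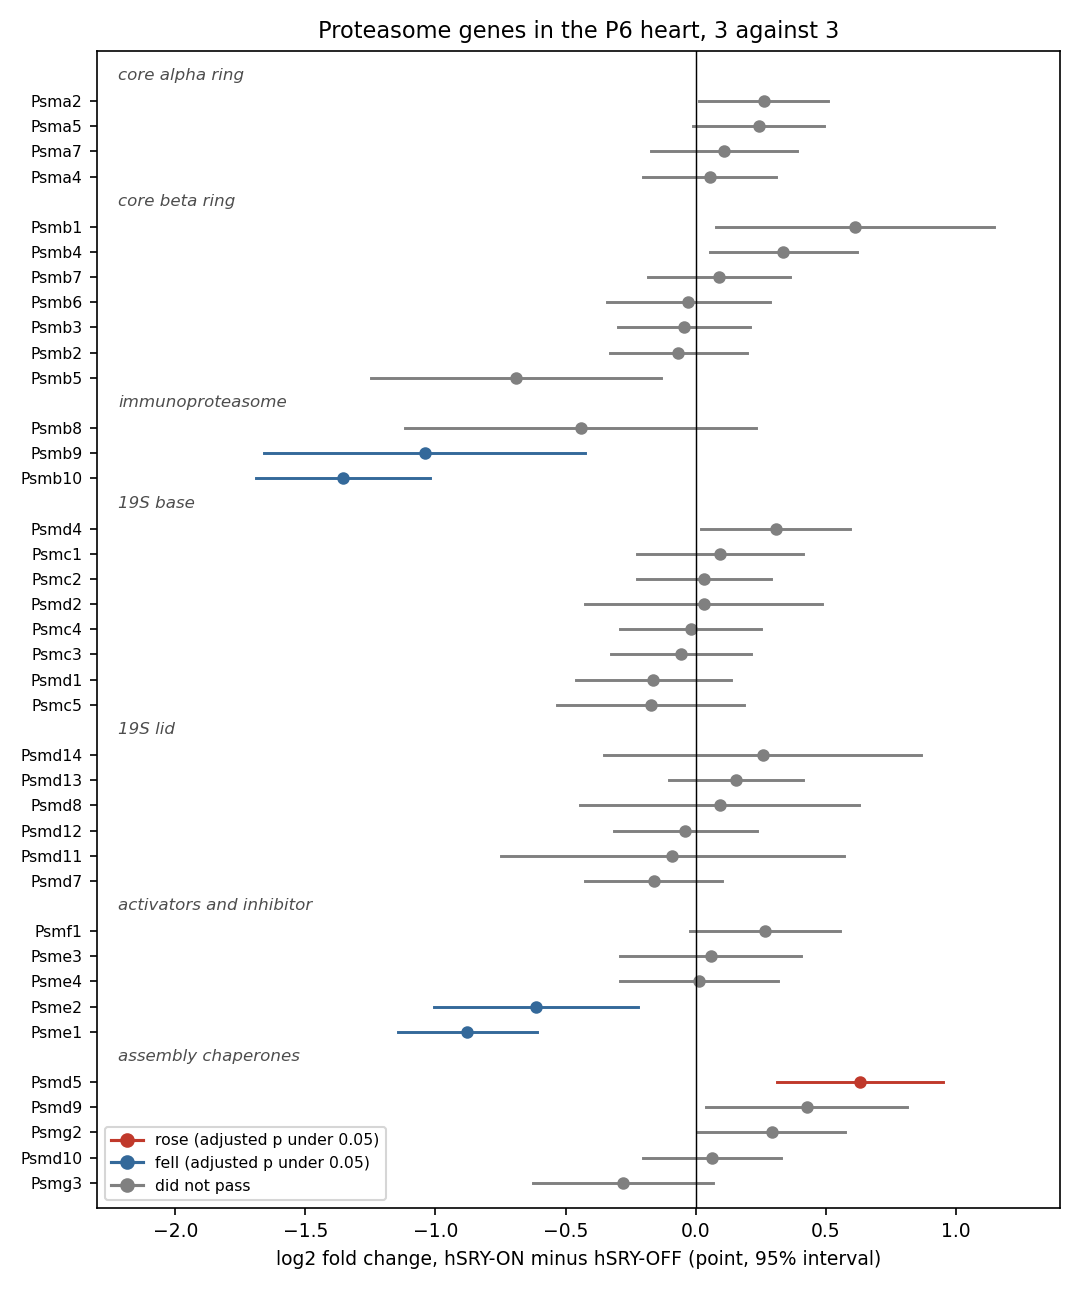
Log2 fold change of hSRY-ON minus hSRY-OFF for the 38 tested proteasome genes (x axis), grouped by role and sorted within each group. Points are the limma estimates and lines their 95% intervals, without adjustment for the number of genes. The 4 genes in blue, Psmb9, Psmb10, Psme1 and Psme2, lie to the left of 0, Psmd5 in red lies to the right, and the grey genes did not pass.

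Psmb10, the trypsin-like subunit of the immunoproteasome, fell the most of all 38. Its normalized log2 intensity was 11.59, 11.53 and 11.45 in hSRY-OFF hearts 1 to 3 and 10.20, 9.93 and 10.38 in hSRY-ON hearts 1 to 3. The highest hSRY-ON heart was more than 1 log2 unit below the lowest hSRY-OFF heart. The log2 fold change was -1.36 with a standard error of 0.14 (limma adjusted p = 0.000801), so that the intensity was 0.391 of that in hSRY-OFF. A further probe of Psmb10 fell by 1.24 on the log2 scale (limma adjusted p = 0.000748). In bulk tissue, less RNA per cell cannot be told apart from fewer cells of the type that makes it, here and for each gene below.

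Psmb9, the immunoproteasome subunit that takes the place of the caspase-like Psmb6, had log2 intensities of 7.51, 7.82 and 7.15 in the hSRY-OFF hearts and of 6.37, 6.02 and 6.96 in the hSRY-ON hearts. The groups did not overlap, although hSRY-ON 3 came within 0.2 of hSRY-OFF 3. The log2 fold change was -1.04 with a standard error of 0.27 (limma adjusted p = 0.0241). Without hSRY-ON 1 it was -1.01 and the limma adjusted p was 0.0702, and the call was also lost without hSRY-OFF 1, hSRY-OFF 2 or hSRY-ON 2. Without background correction, which compresses dim probes, its fold change was -0.49.

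Psmb8 replaces the chymotrypsin-like Psmb5. Its probe was dim, with log2 intensities of 5.82, 5.90 and 6.88 in hSRY-OFF and of 5.48, 5.80 and 6.0 in hSRY-ON hearts, although it was detected on all 6 arrays. The groups overlapped, and hSRY-OFF 3 lay apart from the other 5 hearts. The log2 fold change was -0.44 with a standard error of 0.29 and a 95% interval of -1.12 to 0.23 (limma adjusted p = 0.295), and it was -0.11 without hSRY-OFF 3. The fall of Psmb9 and Psmb10 was therefore not shown for Psmb8, and neither was its absence. The median over the 3 immunoproteasome subunits was -1.04.

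Psme1 and Psme2 encode the alpha and beta subunits of PA28, the ring that opens the gate of the core. Psme1 had log2 intensities of 12.97, 13.05 and 13.04 in hSRY-OFF and of 12.05, 12.12 and 12.26 in hSRY-ON hearts. The hearts of each group lay close together and the groups were well apart. Psme1 fell by 0.88 on the log2 scale with a standard error of 0.12 (limma adjusted p = 0.00169), and a further probe fell by 0.90 (limma adjusted p = 0.00517).

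Psme2 had log2 intensities of 10.44, 10.37 and 10.64 in hSRY-OFF and of 9.90, 9.58 and 10.14 in hSRY-ON hearts. The groups did not overlap. It fell by 0.61 on the log2 scale with a standard error of 0.17 (limma adjusted p = 0.0319). The call was lost without any 1 heart other than hSRY-ON 3, with a limma adjusted p of 0.0784 without hSRY-ON 1 and of 0.0723 without hSRY-OFF 3. It was also lost without normalization between arrays. RefSeq lists Psme2b, a copy of Psme2 on chromosome 11, and whether the probe tells the copies apart was not tested. In the RefSeq order of GRCm38.p6, Psmb9, Tap1, Psmb8 and Tap2 are neighbours in the MHC region of chromosome 17, Psme1 and Psme2 lie on chromosome 14 with Emc9 between them, and Psmb10 is on chromosome 8.

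The related activators gave values near 0. Psme3 encodes PA28 gamma, the nuclear relative of PA28 that is not known as interferon-inducible, and its log2 fold change was 0.06 with a 95% interval of -0.29 to 0.40. Psme4, which encodes the PA200 activator, had a log2 fold change of 0.01 and an interval of -0.29 to 0.32. Both intervals lie above the estimates for Psme1 and Psme2. Psmf1, the inhibitor PI31, was at 10.28, 10.33 and 10.49 in hSRY-OFF and at 10.68, 10.51 and 10.71 in hSRY-ON hearts by its brighter probe. These groups were narrowly separate with a log2 fold change of 0.27 (limma adjusted p = 0.147), whereas a dimmer probe of Psmf1 gave -0.27 (limma adjusted p = 0.225), so the direction is unsettled.

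**Figure D2:**
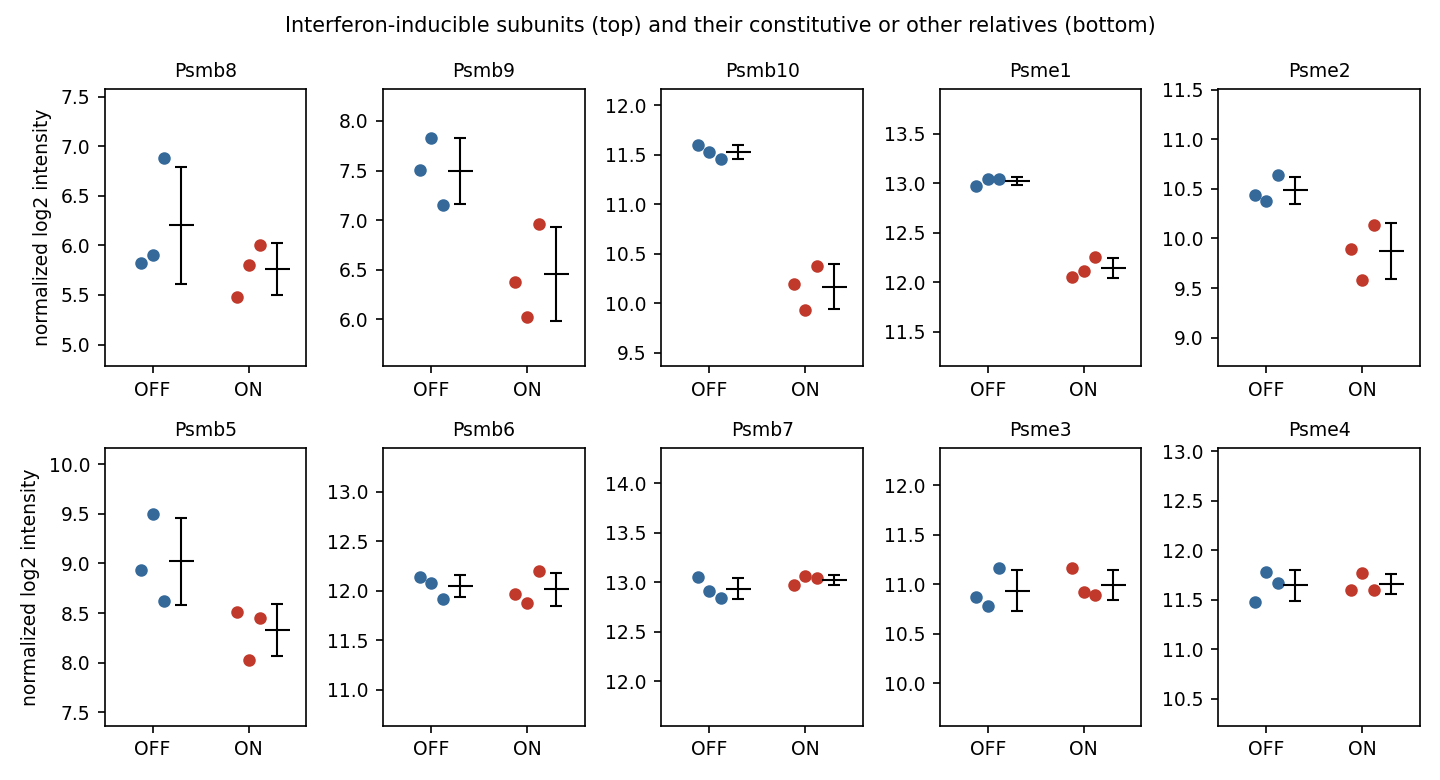
Normalized log2 intensity (y axis) in each hSRY-OFF heart (blue) and hSRY-ON heart (red), with the mean and SD of 3 hearts in black, for the interferon-inducible subunits in the top row and for their constitutive counterparts or relatives in the bottom row. Every panel spans the same number of log2 units. The groups are separate for Psmb9, Psmb10, Psme1, Psme2 and Psmb5 and overlap in the other panels.

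The constitutive catalytic subunits gave different values from each other. Psmb5 had log2 intensities of 8.94, 9.50 and 8.62 in hSRY-OFF and of 8.51, 8.03 and 8.45 in hSRY-ON hearts. The groups did not overlap, but the hSRY-OFF hearts were spread over almost 1 log2 unit. Its log2 fold change was -0.69 with a standard error of 0.24 (limma adjusted p = 0.0692). Without hSRY-OFF 3 it was -0.89 and passed the test (limma adjusted p = 0.0315), and it also passed without background correction, with a larger offset and with an intensity trend, so Psmb5 stood at the threshold. Without hSRY-OFF 2 it was -0.45 (limma adjusted p = 0.159).

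Psmb6 was at 12.14, 12.08 and 11.92 in hSRY-OFF and at 11.97, 11.88 and 12.20 in hSRY-ON hearts, and the groups overlapped. Its log2 fold change was -0.03 with a 95% interval of -0.34 to 0.28 (limma adjusted p = 0.901). Psmb7 was at 13.05, 12.91 and 12.84 in hSRY-OFF and at 12.97, 13.07 and 13.05 in hSRY-ON hearts by its brightest probe, and these overlapped too. Its log2 fold change was 0.09 (limma adjusted p = 0.605), and its other probes gave -0.27 and -0.16, neither of which passed.

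Within each heart, the immunoproteasome subunit was set against the constitutive subunit whose place it takes, and only the change of this log2 difference between groups is read, since levels of different probes are not comparable. Psmb10 relative to Psmb7 was 1.45 log2 units lower in hSRY-ON hearts, on average -2.86 ± 0.24 (SD, n = 3) against -1.41 ± 0.04 (SD, n = 3) in hSRY-OFF. This used the brightest probe of Psmb7. Its other probes, at -0.27 and -0.16, would make the change smaller, and the pair was not computed with them. Psmb9 relative to Psmb6 was at -5.56 ± 0.31 (SD, n = 3) in hSRY-ON against -4.55 ± 0.27 (SD, n = 3) in hSRY-OFF, a change of -1.01. For both pairs the 3 hSRY-ON hearts all lay below the 3 hSRY-OFF hearts. The two-sided exact permutation p was 0.1 for each, the smallest that 3 against 3 allows, and 0.15 after Benjamini-Hochberg adjustment over the 3 pairs, so this design could not pass 0.05. Psmb8 relative to Psmb5 changed by 0.25 (exact permutation p = 0.7), with overlapping groups, since both genes were lower in hSRY-ON hearts. This last change rested on single hearts, at -0.13 without hSRY-OFF 2, 0.78 without hSRY-OFF 3 and 0.48 without hSRY-ON 1.

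**Figure D3:**
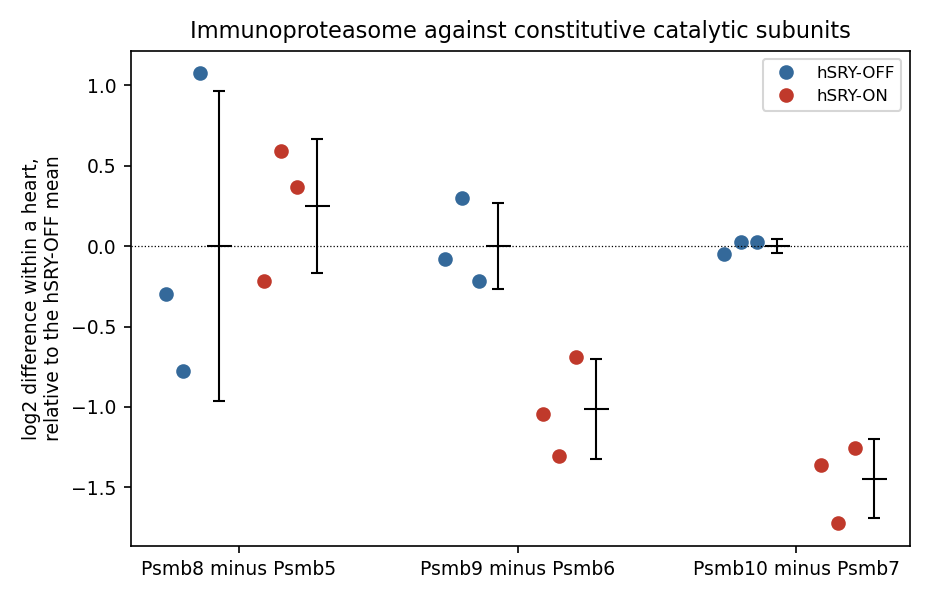
Log2 difference within a heart between an immunoproteasome subunit and the constitutive subunit whose place it takes (y axis, relative to the hSRY-OFF mean), for 3 pairs. Points are hearts, blue hSRY-OFF and red hSRY-ON, with the mean and SD of 3 hearts in black. The red points lie below the blue points for Psmb9 minus Psmb6 and Psmb10 minus Psmb7 and among them for Psmb8 minus Psmb5.

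The remaining subunits of the 20S core showed no called change. The log2 fold changes of the 11 tested core genes had a median of 0.09 and ranged from -0.69 in Psmb5 to 0.61 in Psmb1. In the alpha ring, whose subunits form the gate of the barrel, all 4 tested genes were above 0, from 0.05 to 0.26. Psma2, the largest of them, was at 13.45, 13.45 and 13.39 in hSRY-OFF and at 13.67, 13.70 and 13.71 in hSRY-ON hearts. All 3 hSRY-ON hearts of Psma2 were above the hSRY-OFF hearts, by a small amount, with a log2 fold change of 0.26 and a 95% interval of 0.01 to 0.51 (limma adjusted p = 0.107). Psma1, Psma3 and Psma6 were detected on no array and have no value here.

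Among the structural beta subunits, Psmb1 was at 10.93, 11.24 and 10.31 in hSRY-OFF and at 11.31, 11.46 and 11.54 in hSRY-ON hearts. The groups were separate only narrowly, with hSRY-OFF 3 the lowest, and the log2 fold change of 0.61 had a standard error of 0.23 (limma adjusted p = 0.0863). For Psmb1 it was 0.35 without hSRY-OFF 3 (limma adjusted p = 0.127), and 0.82 without hSRY-OFF 2, where it passed (limma adjusted p = 0.0377). Psmb4 was at 13.73, 13.82 and 13.98 in hSRY-OFF and at 14.23, 14.20 and 14.12 in hSRY-ON hearts, a log2 fold change of 0.34 (limma adjusted p = 0.0750). Psmb2 and Psmb3 were within 0.07 of 0.

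No gene of the 19S regulatory particle passed the test. The log2 fold changes of its 14 tested genes had a median of 0.01, 7 of them above and 7 below 0, and ranged from -0.17 in the ATPase Psmc5 to 0.31 in the ubiquitin receptor Psmd4. Psmd4 was at 12.78, 12.91 and 12.91 in hSRY-OFF and at 13.07, 13.32 and 13.14 in hSRY-ON hearts. The groups did not overlap, but the change did not pass (limma adjusted p = 0.102). In the base, the 5 tested ATPases Psmc1 to Psmc5 lay between -0.17 and 0.10, with Psmc5 at -0.30 without hSRY-OFF 3 (limma adjusted p = 0.148), and the scaffold subunits Psmd1 and Psmd2 were at -0.16 and 0.03. A dimmer probe of Psmd2 gave -0.64 (limma adjusted p = 0.0584).

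In the lid, Psmd14, the deubiquitinase that removes ubiquitin chains from substrates, had log2 intensities of 7.82, 7.95 and 6.93 in hSRY-OFF and of 7.70, 7.80 and 7.97 in hSRY-ON hearts. The low value of hSRY-OFF 3 set its log2 fold change of 0.26 (limma adjusted p = 0.498), and leaving out that heart gave -0.06. Psmd11, a further lid subunit with a low hSRY-OFF 3 (8.48, 8.48 and 7.40 in hSRY-OFF, 8.04, 7.94 and 8.12 in hSRY-ON), was at -0.09 over all hearts and passed as lower without hSRY-OFF 3, at -0.45 (limma adjusted p = 0.0379). The lid subunits Psmd7, Psmd8, Psmd12 and Psmd13 lay between -0.16 and 0.16. Psmc6 was detected on 1 array and Psmd6 on at most 2 by either probe, so neither was tested.

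How far a change could have gone unseen is given by the intervals. For 16 of the 25 tested core and 19S genes the 95% interval of the brightest probe lay wholly within 0.5 log2 units of 0 in either direction. The other 9 were Psma2, Psmb1, Psmb4, Psmb5, Psmc5, Psmd4, Psmd8, Psmd11 and Psmd14, and larger changes are not excluded for them. Among the 16, a dimmer probe of Psmd2 had an interval of -1.13 to -0.15 and a dimmer probe of Psmb7 of -0.55 to 0.01. Larger changes are not excluded for these genes either. Over the 33 proteasome genes that did not pass, 21 had a log2 fold change within 0.2 of 0 and 27 within 0.3, and 19 had an interval within 0.5.

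Of the assembly chaperones, 1 of 5 tested genes rose. Psmd5, which helps to assemble the 19S base and leaves the finished proteasome, was at 7.77, 7.40 and 7.55 in hSRY-OFF and at 8.27, 8.25 and 8.10 in hSRY-ON hearts. The groups did not overlap. It rose by a log2 fold change of 0.63 with a standard error of 0.14 (limma adjusted p = 0.0126), or 1.55-fold, and passed without hSRY-ON 1 as well (limma adjusted p = 0.0481). It did not pass without normalization between arrays, where its log2 fold change was 0.51 (limma adjusted p = 0.303). A further Psmd5 probe was detected on no array.

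Psmd9, a chaperone of the same kind, was at 7.14, 6.91 and 6.82 in hSRY-OFF and at 7.32, 7.67 and 7.17 in hSRY-ON hearts, a log2 fold change of 0.43 (limma adjusted p = 0.0960). Its groups were separate by 0.03 only. Psmg2, a chaperone of the core, had a log2 fold change of 0.29 by its brighter and -0.03 by its dimmer probe, and Psmd10 of 0.06. Psmg3, also a core chaperone, was at -0.28 with hSRY-ON below hSRY-OFF (limma adjusted p = 0.202) and at -0.18 without hSRY-OFF 3. The 5 tested chaperones had a median of 0.29, with 4 above 0.

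Where several probes measured a gene, the calls were the same in all 12 genes and the direction in 6 of them. The probes agreed in sign for Psma7, Psmb2, Psmb10, Psmc5, Psme1 and Psme4, and they differed for Psmb7, Psmd2, Psmd7, Psmd10, Psmf1 and Psmg2. Only probes of genes without a call gave opposite signs. Psmc3ip, which matched by name alone, was at 10.79, 10.89 and 10.68 in hSRY-OFF and at 10.43, 10.35 and 10.53 in hSRY-ON hearts. Its groups were separate and its log2 fold change of -0.35 did not pass (limma adjusted p = 0.0666).

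Genes that act around the proteasome were described from lists, with no test of a list as a whole. In antigen presentation by MHC class I, Tap1, the peptide transporter subunit whose gene lies between Psmb9 and Psmb8, had a log2 fold change of -0.48 with a standard error of 0.27 and did not pass (limma adjusted p = 0.236). Its partner Tap2 was at -0.03, the class I light chain B2m at -0.23 and Irf1, an interferon-induced activator of Psmb9, at -0.21, and none of these passed. H2-K1 was not detected well enough to be tested.

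Of the 5 tested regulators of proteasome genes, none passed at an adjusted p under 0.05 or at an unadjusted p under 0.05 in limma. Nfe2l1, which raises proteasome subunit transcription when proteasome activity is low, was at -0.23, and Nfe2l2 at -0.24. Among proteins that bind the proteasome, Ubqln4, a shuttle factor that carries ubiquitinated proteins to the 19S particle, fell by 0.48 on the log2 scale (limma adjusted p = 0.0352). Pomp, which drives maturation of the core, was at 0.02 and the ubiquitin receptor Adrm1 at 0.14.

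Upstream, 1 of 10 tested genes of the ubiquitin supply rose and 1 fell. Uba1, the enzyme that activates ubiquitin, rose by a log2 fold change of 0.48 (limma adjusted p = 0.0478), and Cdc34, a ubiquitin-conjugating enzyme, fell by 0.63 on the log2 scale (limma adjusted p = 0.0335). Of 8 tested genes of the p97 segregase, which extracts ubiquitinated proteins, only Nploc4 passed, with a rise of 0.41 (limma adjusted p = 0.0297), and p97 itself (Vcp) was at -0.05. The shares called in these lists can be read against the 28.8% of all genes called.

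Markers of other cell types were measured beside the fall of the interferon-inducible subunits, since leukocytes are rich in immunoproteasomes. Of 8 leukocyte markers, 6 were detected and tested, 3 of these rose and none fell. The summed level of all 8 ranged from 4244 to 5176 over the hSRY-OFF hearts and from 7556 to 7881 over the hSRY-ON hearts. It was higher in hSRY-ON hearts, whereas Psmb9, Psmb10, Psme1 and Psme2 were lower. The sum rested mostly on Lyz2 and Laptm5, the brightest of the list, at mean log2 intensities of 12.07 and 11.22 in hSRY-ON. The markers that rose were the monocyte and macrophage genes Cd14, Cd68 and Lyz2, with log2 fold changes of 1.30, 0.99 and 1.02. Csf1r at 0.40, Laptm5 at 0.39 and Cd52 at -0.23 did not pass. The pan-leukocyte Ptprc and the myeloid Itgam were detected on no array. Of 7 thymus and T cell markers, Cd3e, Cd4, Cd8a, Dntt and Rag1 were detected on no array. The summed level of all 7 ranged from 224 to 245 over the hSRY-OFF hearts and from 227 to 255 over the hSRY-ON hearts. It includes the background of the undetected genes and says little about their expression. Endothelial markers, which 1 up and 2 down calls divided, summed to 10730 to 11600 and 10650 to 11940. Other tissues' markers also differed. Ttr, a liver-secreted protein, was detected in the 3 hSRY-ON hearts alone and was at least 3.87-fold higher there (limma adjusted p = 0.000378). The liver gene Apoa1 was detected in 2 hSRY-ON hearts and in no hSRY-OFF heart, at least 1.45-fold higher, and was not tested. The liver genes Alb and Serpina1a were detected on no array. The 5 brown fat markers were divided. Adipoq, a fat cell hormone, rose by a log2 fold change of 1.48 (limma adjusted p = 0.0265), and Ucp1 rose by 3.67 (limma adjusted p = 0.0395). Cidea was at -1.05 with separate groups and did not pass (limma adjusted p = 0.0691). Fabp4 was detected in 2 hSRY-OFF hearts only and was not tested. The sum of this list spanned 1070 to 3526 with hSRY active, which encloses the hSRY-OFF span of 1925 to 2643. The hemoglobin gene Hbb-b1 fell by 1.29 on the log2 scale (limma adjusted p = 0.00502), whereas Hba-a1 was at 0.03. The fibroblast gene Tcf21 rose by a log2 fold change of 0.76 (limma adjusted p = 0.0143), and the other 4 fibroblast markers did not pass. The cardiomyocyte sum was lower together with the inducible subunits, but it rested mostly on Myh6 and Actn2, and its list was divided, as given above. The part of any of these markers in the result was not tested.

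**Figure D4:**
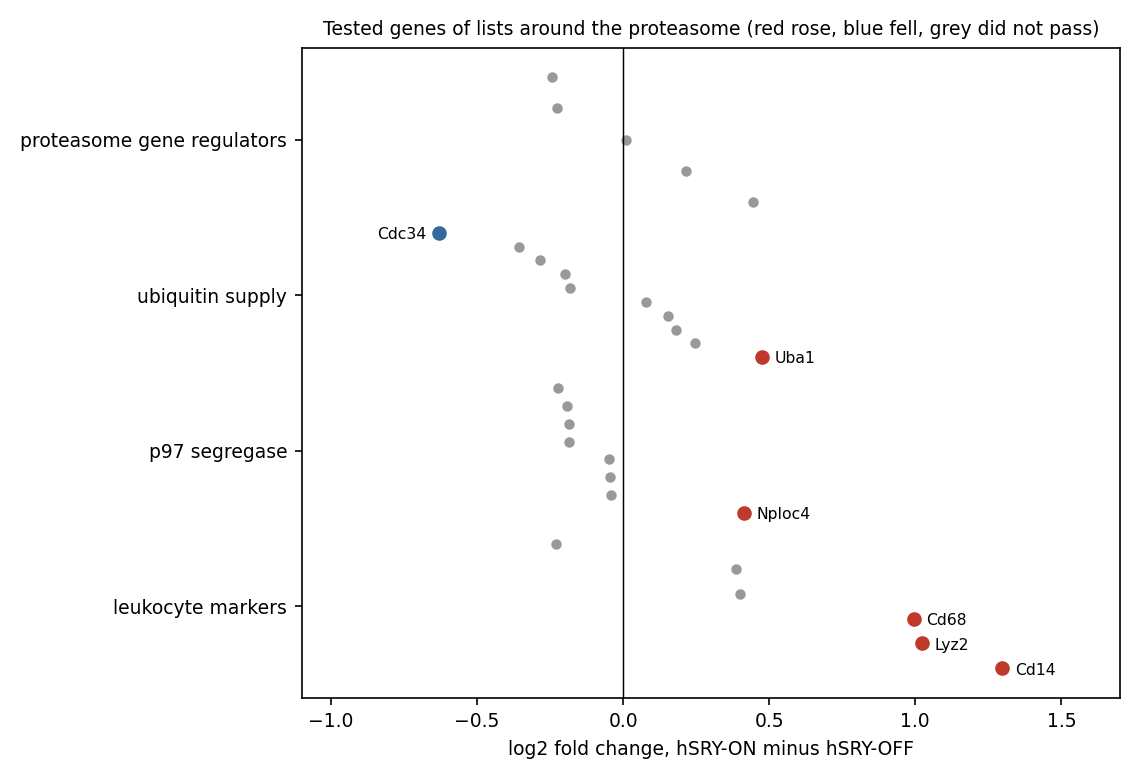
Log2 fold change of hSRY-ON minus hSRY-OFF (x axis) for each tested gene of 3 lists around the proteasome and of the leukocyte markers (y axis, sorted within each list). Red genes rose, blue genes fell and grey genes did not pass. Cdc34 lies left of 0, and Uba1, Nploc4 and the markers Cd14, Cd68 and Lyz2 lie right of 0.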

How the data were processed

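Total RNA of 6 hearts had been hybridized to Illumina MouseRef-8 v2.0 arrays. The authors deposited non-normalized bead intensities on a linear scale and, for each probe and array, a detection p-value against negative controls. The methods name TCC for normalization and testing, without settings, and the submitters' processing notes list limma, without a version. TCC was not used here, because these are not counts. The lowest intensity of an array was 110 to 135, and no genome build enters the values.

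With R 4.3.3 and limma 3.58.1, intensities were corrected by the normal-exponential model from the detection p-values with an offset of 16, quantile normalized and put on the log2 scale (neqc). The offset makes fold changes of dim probes too small. Probes with a detection p-value under 0.05 on at least 3 of 6 arrays were fitted with lmFit and eBayes on the group alone, and two-sided p-values were adjusted over 12970 probes (Benjamini-Hochberg). A called gene had an adjusted p under 0.05. Summed marker levels add the normalized linear values of the brightest probe of every listed gene on the array, detected or not. Undetected genes thus add background and the offset to a sum. Pairs were compared by an exact permutation test. When tested on simulated data, these steps recovered directions and sizes but missed many changes of 2-fold and less, and the bar for passing that test was lowered to larger changes after it had been missed. Psmd5, Psme1 and Psme2 changed by less than 2-fold, so genes of like change may have gone uncalled. Python 3.11.15 with matplotlib 3.10.9 drew the figures.

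Genes were named if called, if among Psmb5 to Psmb10, Psme1 and Psme2, or if largest in their class by absolute change. In the lists around the proteasome these were the called genes with the largest rise and fall. Psma1, Psma3 and Psma6, Psmb1 to Psmb4, Psmc1 to Psmc6, Psmd1, Psmd2, Psmd6 to Psmd13, Psme3, Psme4, Psmf1, Psmg2, Psmg3, Cd68, Lyz2, the markers and genes named without a call outside this rule were added after their values were seen. Some genes of the antigen presentation and proteasome-binding lists are not reported here, so these lists are given without counts. The members, lists and rules were chosen with earlier results of these data known. Alternatives were other background corrections, normalizations, probe filters and variance models, a replicate block, the mean of a gene's probes, and leaving out each heart.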

Additional observations from a re-analysis of the deposited data

How the results depend on the processing

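Psmb10 and Psme1 fell in all 10 alternatives and without any 1 heart, with log2 fold changes of -1.46 to -1.24 and -0.99 to -0.83. The number of proteasome genes that rose was 7 without background correction (Psma2, Psma5, Psmb1, Psmb4, Psmd4, Psmd5 and Psmg2), 6 with an intensity trend and 0 without normalization between arrays, where Psmd5 (limma adjusted p = 0.303) and Psme2 (limma adjusted p = 0.1) were lost and the median of all genes was -0.11. Leaving out 1 heart gave 1 to 2 genes up and 2 to 5 down. With the replicate number as a block, 1 gene rose and 3 fell, and Psmb9 was lost (limma adjusted p = 0.0698), but same-numbered hearts shared only a number, with correlations of their deviations of -0.02, 0.04 and -0.07. The median of the 20S core was -0.031 without normalization, 0.013 without a probe filter, 0.054 over the mean of a gene's probes and 0.052 to 0.12 without 1 heart. That of the 19S particle was -0.11 without normalization and -0.06 to 0.03 without 1 heart. The immunoproteasome median was -0.49 without background correction, -0.81 with an offset of 50 and -1.30 to -0.83 without 1 heart. Psmb8 relative to Psmb5 ranged from -0.13 to 0.78 without 1 heart, reversed without hSRY-OFF 2 (-0.13). The cause of these shifts was not tested. Genes that did not pass are not shown to be level, since 3 hearts in each group and dim probes limit what could be detected.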
